A study of Homo sapiens with 6 samples.

Results

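Replication-dependent histone genes were described in the polyA RNA of K562 cells with and without induced Flag-PCBP1. They were taken as the protein-coding genes of GENCODE 44 with the symbols H1-1 to H1-6, or H2AC, H2BC, H3C or H4C followed by a number. This rule gave 69 of 62252 genes, of which 6 encode H1, 17 encode H2A, 18 encode H2B, 13 encode H3 and 15 encode H4. K562 is a human erythroid leukemia cell line. The cells came from a single clone with a lox-flanked landing site at the AAVS1 locus. Flag-PCBP1, driven by a promoter that responds to Dox, was placed there by Cre-mediated exchange along with a puromycin marker, and the resistant cells were used as a polyclonal pool. Libraries of 3 samples without doxycycline (−Dox) and 3 samples with doxycycline (+Dox) were compared. Both groups carry the cassette, so an effect of Dox itself and an effect of Flag-PCBP1, a poly C-binding protein that acts on RNA, cannot be told apart. The dose and the time of Dox for these libraries were not given in the sources used here. Nothing in those sources says that the 3 libraries of a group came from separate cultures, so p-values measure the spread between these libraries, which may be technical.

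Histones package DNA. A core of H2A, H2B, H3 and H4 is wrapped by DNA, and linker H1 sits where the DNA enters and leaves the core. The replication-dependent genes are transcribed mainly in S phase, when new DNA needs histones. Their mRNAs usually end a few bases after a short stem-loop, which is bound by SLBP (the stem-loop binding protein), and carry no polyA tail. Some of the same genes also have longer annotated transcripts that run past the stem-loop or are spliced, and such forms can end at an ordinary polyA site.

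The stem-loop is the sequence that sets these genes apart from other genes in a polyA library, and it is shown for the genes on which the results turn. Sequences were read from the GENCODE 44 transcripts (GRCh38), are written 5′ to 3′ as DNA, and have the 16 bases of the stem-loop in capitals. H2BC12 and H1-2 are the most abundant members, H3C10 the most abundant H3 gene, and the remaining lines give pairs of near-identical copies.
H2BC12: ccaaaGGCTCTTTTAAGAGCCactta
H1-2: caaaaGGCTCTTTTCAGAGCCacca
H3C10: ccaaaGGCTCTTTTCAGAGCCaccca
H3C14: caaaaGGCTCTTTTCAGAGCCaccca
H3C15: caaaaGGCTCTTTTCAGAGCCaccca
H4C11: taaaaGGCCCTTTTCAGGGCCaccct
H4C12: caaaaGGCCCTTTTTAGGGCCccca
The H2BC12 line lies at chr6:27146361-27146386 on the minus strand and the H3C14 line at chr1:149840687-149840712 on the minus strand. The H4C11 line lies at chr6:27824454-27824479 on the plus strand. The lines of H3C14 and H3C15 are letter for letter the same, whereas those of H4C11 and H4C12 are not.

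Among the short annotated forms (1 exon, with an end within 150 bases of the stop codon), 67 of 67 held the 16-base stem-loop pattern searched for, which was GG, 3 free bases, TT, 1 free base, T, 1 free base, A, 3 free bases and CC. Between 0 and 18 bases followed it (median 5). There were 10 versions of it. The version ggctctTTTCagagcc (loop in capitals) was present in 39 genes of the H1, H2A, H2B and H3 types. The version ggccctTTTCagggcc was present in 10 genes, all of the H4 type. The pattern was found in the last 100 bases of the reference transcript (MANE) of 68 of 69 members (98.6%) and of 29 of 18992 other protein-coding genes (0.153%). The polyA signal AATAAA was found in the last 40 bases in 2.9% of the members and in 64.1% of the other genes. Both searches used the transcript strand only.

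Each library summed to between 70811161 and 84061068 estimated counts. Induction was checked first. PCBP1 was at 247, 269 and 267 CPM (counts scaled to the size of the library, with TMM) in −Dox and at 1029, 936 and 1037 CPM in +Dox. It was 3.83-fold higher in +Dox (log2 fold change 1.94, SE 0.06, adjusted p = 5.22e-10, edgeR).

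Histone mRNA was a small part of each library. The 69 genes held 0.137%, 0.147% and 0.143% of all counts in −Dox and 0.160%, 0.148% and 0.153% in +Dox. Their TPM values, which are scaled for transcript length, summed to 3842, 3789 and 3787 in −Dox and to 4123, 4062 and 4152 in +Dox. The +Dox libraries were higher on both scales without overlap, and an exact permutation test gave p = 0.1 for each, which is the smallest p that 3 against 3 libraries allow. As CPM the same sums overlapped (1357, 1507 and 1426 in −Dox, 1598, 1436 and 1550 in +Dox, exact permutation p = 0.2). In bulk RNA, more cells in S phase and more histone mRNA per cell cannot be told apart.

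**Figure D1:**
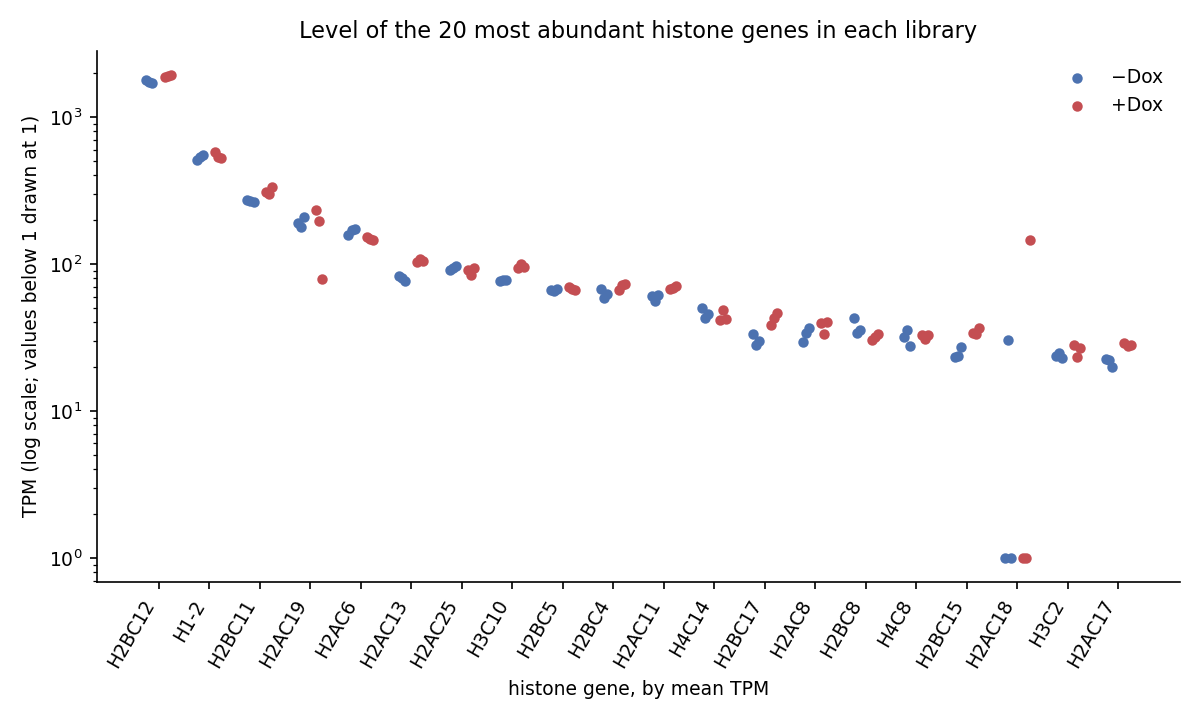
TPM on a log axis of the 20 histone genes with the highest mean, 1 point per library (blue −Dox, red +Dox, values below 1 are drawn at 1). H2BC12 stood highest in every library, between 1695 and 1935 TPM, and H2AC18 was drawn at the floor in 4 of 6 libraries.

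H2B genes led the family. Per length, H2B genes summed to 2281 ± 66.2 TPM in −Dox and 2525 ± 44 TPM in +Dox (SD, n = 3), which was 59% to 62% of the histone TPM of a library. H2A genes summed to 687 ± 19 and 723 ± 25.7 TPM, and H1 genes to 542 ± 20.6 and 556 ± 28.1 TPM. H4 genes summed to 165 ± 7.53 and 161 ± 3.32 TPM, and H3 genes to 131 ± 2.79 and 148 ± 1.88 TPM. The order of the types was therefore H2B, H2A, H1, H4 and H3 in both groups.

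A few genes made up most of this. Of the 69 genes, 5 had a mean above 100 TPM, 26 had a mean above 10 TPM and 19 had a mean below 1 TPM. H2BC12 (chr6:27146361-27146855), which encodes an H2B protein, was at 1787, 1718 and 1695 TPM in −Dox and at 1885, 1906 and 1935 TPM in +Dox. H2BC12 held 31.2% to 32.9% of the histone counts of a library, and together with H1-2 it held 51.1% to 52.8%.

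H1-2 (chr6:26055740-26056470), which encodes linker histone H1.2, was at 508.5, 535.2 and 551.4 TPM in −Dox and at 579.6, 536.4 and 529.3 TPM in +Dox, and the groups overlapped. H2BC11, an H2B gene, followed at 270.4, 267.7 and 263.9 TPM in −Dox and 310.3, 301.2 and 332.1 TPM in +Dox, without overlap. H2AC6, an H2A gene, was at 158.1, 170.5 and 172.5 TPM in −Dox and 151.9, 148.8 and 145.6 TPM in +Dox. The difference for H2AC6 did not pass the test (log2 fold change −0.11, SE 0.05, adjusted p = 0.13). H2AC25 (91.1 to 96.1 TPM in −Dox, 83.9 to 93.6 in +Dox), H2BC5 (65.6 to 67.9 and 66.6 to 69.5) and H2BC4 (58.7 to 68.1 and 66.5 to 72.6) completed the 10 most abundant with H2AC19, H2AC13 and H3C10, which are given with their tests further on. The H4 gene listed highest was H4C14, at 50.2, 43.1 and 45.6 TPM in −Dox and at 41.3, 48.9 and 42.2 TPM in +Dox. Its transcript H4C14-201 (means of 34.4 and 34.5 TPM) has the same sequence as a transcript of H4C15, so this level belongs to both genes and the rank of H4C14 alone, beside H4C8 at a mean of 32 TPM, is uncertain.

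Genes with a mean count above 10 were compared between +Dox and −Dox with edgeR, and a gene was called at an adjusted p under 0.05 over all 21045 genes tested. Of the 69 histone genes, 54 passed the filter on low counts. The other 15 had at most 20 counts in any library, and 4 of them, H2BC10, H3C8, H4C6 and H4C13, had 0 counts in all 6. Of the 54 tested, 8 (14.8%) were called, beside 15.8% of all genes tested. Higher in +Dox were 6 (11.1%, beside 8.16% of all genes) and lower were 2 (3.70%, beside 7.68% of all genes). In this fit the share of histone genes called was thus close to the share of all genes called, and with DESeq2 it was 18.5% beside 18.7%. It was above that of all genes with an offset for transcript length (16.7% beside 8.94%), with limma on TPM (12.3% beside 5.41%) and with no filter on low counts (23.1% beside 11%). CPM values of −Dox and +Dox did not overlap for 20 of the 54 (37.0%), beside 33.2% of all genes tested. The median log2 fold change was −0.06 over the 54 and 0.01 over all genes. With the study's further limit of an absolute log2 fold change above 1, only H3C14 remained of the histone genes, beside 1.46% of all genes called under that rule.

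**Figure D2:**
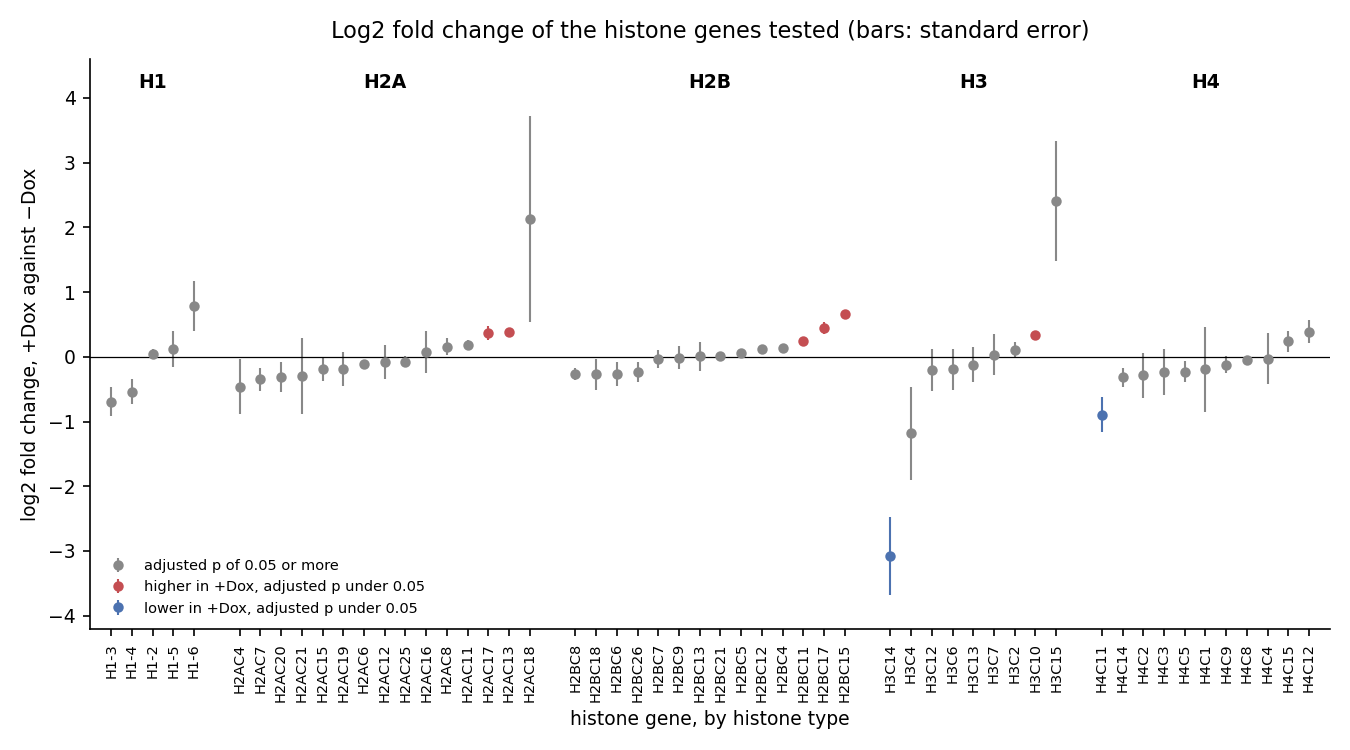
Log2 fold change (+Dox against −Dox, edgeR) of the 54 histone genes tested, grouped by histone type, with bars of 1 SE. The 6 genes in red lay between 0.24 and 0.66, and the 2 genes in blue, H3C14 and H4C11, at −3.08 and −0.90.

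By type, 3 H2B genes of 14 tested rose, 2 H2A genes of 15 rose, 1 H3 gene of 9 rose and 1 fell, 1 H4 gene of 11 fell, and 0 of 5 H1 genes were called. The genes that rose had log2 fold changes of 0.24 to 0.66. H2BC15 (chr6:27838545-27855709), an H2B gene, was at 25.8, 25.7 and 28 CPM in −Dox and 42.8, 42.2 and 40.4 CPM in +Dox. Every +Dox library lay above every −Dox library, and the log2 fold change was 0.66 (SE 0.06, adjusted p = 1.03e-05). H3C10 (chr6:27810051-27811300), which encodes H3.1, was at 66.8, 69 and 71.3 CPM in −Dox and 87.6, 85.9 and 87 CPM in +Dox. The difference for H3C10 was 0.33 on the log2 scale (SE 0.05, adjusted p = 5.35e-04). H2AC13 (chr6:27808173-27808667), an H2A gene, was at 20.1, 23.2 and 20.1 CPM in −Dox and 28.5, 26.3 and 27.5 CPM in +Dox, without overlap. The log2 fold change of H2AC13 was 0.38 (SE 0.07, adjusted p = 0.00265).

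The other genes that rose were H2BC17, H2BC11 and H2AC17. H2BC17 (chr6:27893425-27893891), an H2B gene, was at 7.12, 7.1 and 6.85 CPM in −Dox and 9.14, 9.01 and 10.5 CPM in +Dox, a log2 fold change of 0.44 (SE 0.09, adjusted p = 0.00594). H2BC11 (chr6:27125897-27132795) was at 75.5, 80.5 and 74.7 CPM in −Dox and 92.1, 85.1 and 96.2 CPM in +Dox, a log2 fold change of 0.24 (SE 0.06, adjusted p = 0.0104). H2AC17 (chr6:27892699-27893185), an H2A gene, was at 5.23, 6.17 and 5.06 CPM in −Dox and 7.65, 6.5 and 7.13 CPM in +Dox, a log2 fold change of 0.37 (SE 0.11, adjusted p = 0.0422). In none of these 3 genes did the groups overlap. Calls for H2BC15, H3C10, H2AC13 and H2BC17 were made under all 15 settings run. H2BC11 missed the threshold without −Dox replicate 3 (adjusted p = 0.0511) and without +Dox replicate 3 (0.0563). H2AC17 was called under 9 of 15 settings and missed it without replicate 1 (0.0903) or 3 (0.138) of −Dox and without replicate 1 (0.154) or 3 (0.0991) of +Dox.

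Reads can be assigned to a member only where its sequence differs from that of other genes. Stretches of 150 bases, the length of a read, were therefore compared with all GENCODE 44 transcripts of other genes on both strands. In 49 of the 69 genes no stretch was shared. H2BC15, H3C10, H2BC17, H2BC11 and H2BC12 were among these 49. H2AC13 shared 52.9% of its stretches with H2AC14, which had a mean of 0.619 counts. H2AC17 shared 58.3% with H3C12, which it overlaps on the same strand and which had a mean of 44.5 counts beside 495.7 for H2AC17. These counts are themselves estimates that depend on how shared reads were assigned. Neither H2AC13 with H2AC14 nor H2AC17 with H3C12 was tested as a sum. The genes called lower stood at the other end, with 98.9% shared for H3C14 and 88.8% for H4C11.

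H3C14 (chr1:149840687-149841208) and H3C15 (chr1:149852608-149853125), both of which encode H3.2, are 99.2% identical over their transcripts. H3C14 had 339, 187 and 278 counts in −Dox and 49, 44 and 0 in +Dox. By itself it was lower in +Dox (log2 fold change −3.08, SE 0.60, adjusted p = 0.00406, edgeR), but DESeq2 gave an adjusted p of 0.13 and limma on TPM 0.126. H3C15 had 0, 155 and 0 counts in −Dox and 275, 262 and 286 in +Dox, and its adjusted p was 0.103. The part assigned to H3C14 was smaller in +Dox and the part assigned to H3C15 larger, and 3 of the 6 libraries (−Dox replicate 2 and +Dox replicates 1 and 2) held both. Summed, the pair had 339, 343 and 278 counts in −Dox and 324, 306 and 286 in +Dox. The groups overlapped, and the log2 fold change of the sum was −0.05 (SE 0.14, adjusted p = 0.85).

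H4C11 (chr6:27824092-27824480) and H4C12 (chr6:27831174-27831560), 99.0% identical, were also divided differently between the libraries. H4C11 was at 1.35, 2.45 and 2.21 CPM in −Dox and 0.747, 1.18 and 1.28 CPM in +Dox (log2 fold change −0.90, SE 0.27, adjusted p = 0.039). H4C12 was at 2.54, 2.19 and 1.77 CPM in −Dox and 3.21, 2.47 and 2.83 CPM in +Dox, with overlap (0.39, SE 0.18, adjusted p = 0.176). The sum was at 3.89, 4.64 and 3.99 CPM in −Dox and 3.96, 3.65 and 4.12 CPM in +Dox and did not pass the test (−0.09, SE 0.13, adjusted p = 0.70). H4C11 alone was called under 8 of 15 settings, and it missed the threshold without any single library but −Dox replicate 1. The adjusted p was then 0.145 and 0.126 without replicates 2 and 3 of −Dox, and 0.136, 0.0675 and 0.0618 without replicates 1, 2 and 3 of +Dox.

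H2AC18 and H2AC19, H2A genes that are 99.8% identical, showed the same kind of split without a call. H2AC18 had 0, 802 and 0 counts in −Dox and 0, 0 and 3646 in +Dox. H2AC19 had 4612, 4676 and 4811 counts in −Dox and 5401, 4786 and 1992 in +Dox. H2AC19 was therefore lowest in the only +Dox library in which H2AC18 was found, and without that library, +Dox replicate 3, its log2 fold change was 0.15 in place of −0.19. Their sum was at 54.5, 70.3 and 64.4 CPM in −Dox and 76.1, 56.6 and 69.4 CPM in +Dox (0.09, SE 0.10, adjusted p = 0.61). H4C14 and H4C15 have identical reference transcripts, and the short transcript of H4C15 is not listed apart from that of H4C14. Their sum was at 33.1, 30.6 and 28.1 CPM in −Dox and 30.3, 30.2 and 28.7 CPM in +Dox (−0.04, SE 0.07, adjusted p = 0.74). With these 4 pairs counted as sums, 6 of 50 histone features (12%) were called, beside 15.9% of all features, and all 6 were higher in +Dox.

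**Figure D3:**
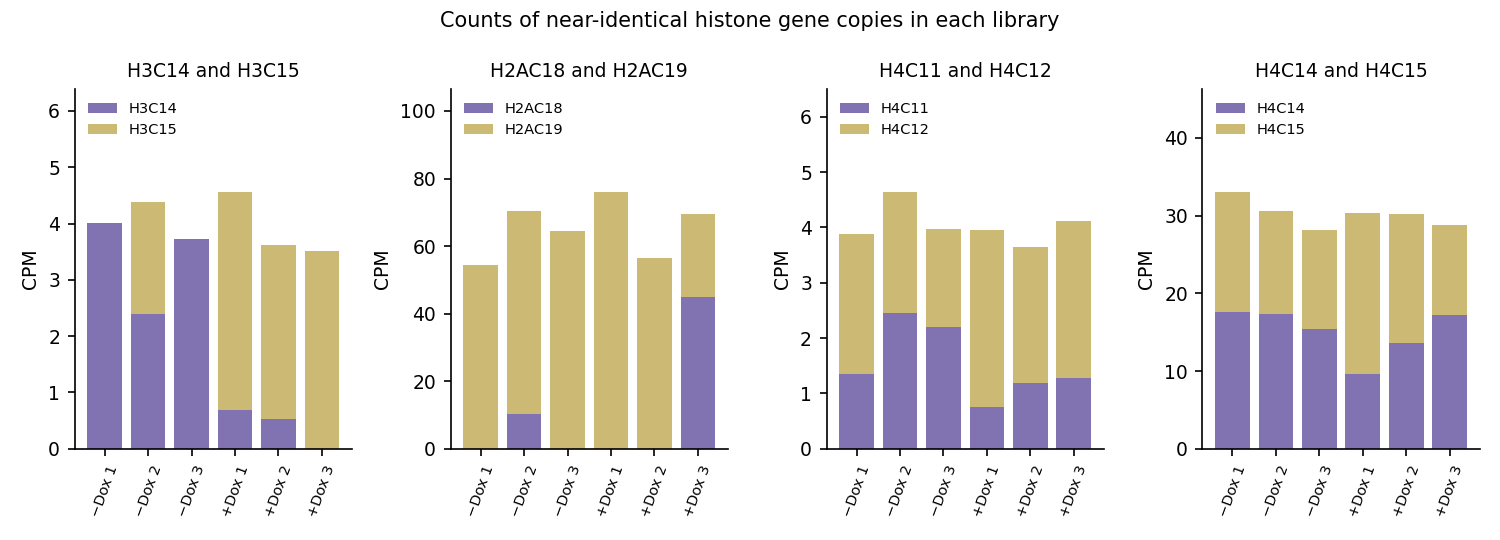
Stacked CPM of the 4 pairs of near-identical copies in each library, with 1 colour per copy. The total of H3C14 and H3C15 stayed between 3.52 and 4.56 CPM in all 6 libraries, while the part assigned to H3C14 ran from all of it (−Dox replicates 1 and 3) to none of it (+Dox replicate 3).

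Of the 5 H1 genes tested, 0 were called with edgeR, although 2 had an unadjusted p under 0.05, and DESeq2 called the same 2, H1-3 and H1-4. Limma on TPM called 0. H1-3, a linker histone gene, was at 1.78, 1.75 and 1.27 CPM in −Dox and 1.08, 0.969 and 0.923 CPM in +Dox, without overlap (log2 fold change −0.69, SE 0.22, adjusted p = 0.0512). H1-4 was at 3.3, 3.93 and 3 CPM in −Dox and 3.03, 2.16 and 1.87 CPM in +Dox, with overlap (−0.54, SE 0.19, adjusted p = 0.0761). H1-2, which outnumbers both, gave 0.05 (SE 0.07, adjusted p = 0.70). After H1-3, the member not called that came closest to the threshold was the H2B gene H2BC8. It was at 10.2, 9.43 and 9 CPM in −Dox and 7.93, 7.33 and 8.43 CPM in +Dox (−0.27, SE 0.09, adjusted p = 0.0633). H2BC12 was at 435.6, 493 and 444.8 CPM in −Dox and 517, 464.9 and 509.2 CPM in +Dox, with overlap (0.12, SE 0.06, adjusted p = 0.199), although its TPM values did not overlap. With an offset for transcript length the adjusted p of H2BC12 was 0.0472, and with limma on TPM it was 0.0416.

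Counts were also summed per histone type, which does not depend on how reads were split among the copies of a type. The sums still depend on splits with genes outside the type. H3C4 shared 95.5% and H2AC7 79.5% of their 150-base stretches with an overlapping gene outside the family, which had a mean of 1126 counts. Of the 5 sums, only H3 was called, beside 15.9% of all features of that table. H3 was at 80.7, 86.8 and 86.7 CPM in −Dox and 103.5, 99.4 and 102.1 CPM in +Dox. Its +Dox values were all above its −Dox values (log2 fold change 0.26, SE 0.05, adjusted p = 0.00287, exact permutation p = 0.1). H3C10 was the largest part of it. Without H3C10 the H3 sum gave −0.08 (adjusted p = 0.63), and without only its longer transcript H3C10-201 it gave 0.02 (adjusted p = 0.93). H2B was at 654.7, 718.4 and 664.8 CPM in −Dox and 776.1, 713.3 and 766.8 CPM in +Dox, with overlap (0.15, SE 0.05, adjusted p = 0.067). The H2B sum passed the threshold with DESeq2 (0.0425), with limma on TPM (0.0398), without +Dox replicate 2 (0.0383) and without H2BC12 (0.20, adjusted p = 0.00642). H1 (0.04, SE 0.07, adjusted p = 0.75), H2A (0.01, SE 0.06, 0.93) and H4 (−0.06, SE 0.05, 0.45) were not called. Without H1-2 the H1 sum gave −0.37 (adjusted p = 0.0923).

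Annotated transcripts were then separated into the short forms described above and all other, long forms. The files listed 100 transcripts of the members, 67 short and 33 long, and 16 genes had both. The signal AATAAA was present in the last 40 bases of 16 of the 33 long forms and of 1 of the 67 short forms. Short forms held 68.2% to 72.3% of the histone counts of a library. Most of this was H2BC12 and H1-2 (51.1% to 52.8% together), which have only a short form in the annotation, so their reads count as short wherever the RNA ended. Long forms contain the coding sequence of the short ones or a part of it, so the split between forms is Salmon's estimate.

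The summed long forms of H2B and those of H3 were higher in +Dox, each through a few transcripts. H2B long forms summed to 165, 163 and 163 CPM in −Dox and to 196, 194 and 197 CPM in +Dox (log2 fold change 0.26, SE 0.04, adjusted p = 0.00121). H3 long forms summed to 63.2, 63.5 and 67.5 CPM in −Dox and to 82.3, 80.5 and 81.1 CPM in +Dox (0.33, SE 0.05, adjusted p = 6.64e-04). In both, every +Dox library lay above every −Dox library. Nearly all of the H3 sum was H3C10-201 (mean 63.9 CPM in −Dox and 80.5 CPM in +Dox), and the other H3 long form tested, H3C6-202, gave −0.19 (adjusted p = 0.75). Of the 9 H2B long forms tested, 3 were called, H2BC11-203, H2BC15-202 and H2BC15-201. H2BC21-201, at a mean of 34.9 CPM in −Dox and 35.2 CPM in +Dox, gave 0.01 (adjusted p = 0.92). H2B short forms were at 489.5, 555.7 and 501.7 CPM in −Dox and at 580.3, 519.3 and 570.1 CPM in +Dox (0.11, SE 0.06, adjusted p = 0.235). H3 short forms were at 17.5, 23.3 and 19.2 CPM in −Dox and at 21.2, 18.9 and 21 CPM in +Dox (0.03, SE 0.09, adjusted p = 0.90). The 2 forms of H2A (long −0.07, short 0.08), the 2 of H4 (long −0.04, short −0.13) and the short forms of H1 (0.04) had adjusted p between 0.393 and 0.747. Of the table with these sums, 15.9% of all features were called. Whether long and short forms of a type differed from each other in their change was not tested.

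**Figure D4:**
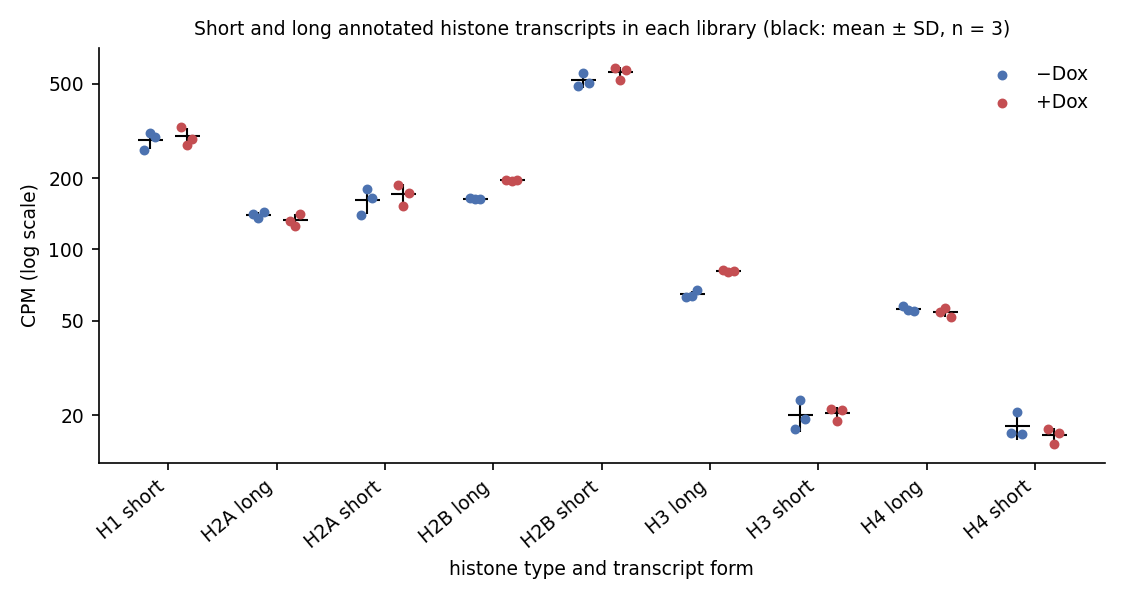
CPM on a log axis of short and long annotated transcripts summed per histone type, 1 point per library (blue −Dox, red +Dox), with black bars for the mean ± SD (n = 3). H2B long forms stood at 163 to 165 CPM in −Dox and at 194 to 197 CPM in +Dox, while the points of H2B short forms overlapped.

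Single transcripts were tested as well. Of the 100, 70 were tested in a table with all other genes and 14 were called, 9 higher and 5 lower, beside 15.8% of all features of that table. H3C10-201, a single-exon transcript of 1250 bases that ends 816 bases past the stop codon, was at 62.3, 62.4 and 66.9 CPM in −Dox and 81.5, 79.5 and 80.5 CPM in +Dox (0.33, SE 0.05, adjusted p = 6.54e-04). The short H3C10-202, which ends at the stem-loop, was at 4.51, 6.63 and 4.47 CPM in −Dox and 6.1, 6.35 and 6.54 CPM in +Dox (0.28, SE 0.15, adjusted p = 0.228). The difference between the forms of H3C10 was not tested.

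H2BC15-202, a spliced form of 4137 bases, was at 18.7, 17.6 and 19.7 CPM in −Dox and 31.6, 32 and 27.8 CPM in +Dox (0.71, SE 0.07, adjusted p = 3.25e-05), and the spliced H2BC15-201 gave 0.85 (SE 0.13, adjusted p = 6.66e-04). The short H2BC15-203, which ends at the stem-loop, was at 3.04, 4.11 and 5.02 CPM in −Dox and 5.04, 3.59 and 4.89 CPM in +Dox, with overlap (0.15, SE 0.18, adjusted p = 0.65). Of the H2BC11 forms, the spliced H2BC11-203 gave 0.35 (SE 0.06, adjusted p = 0.00256) and the short H2BC11-201 gave 0.07 (SE 0.13, adjusted p = 0.78). H2AC13, H2BC17 and H2AC17, which also rose, have only a short form in the annotation. Their reads count as short wherever the RNA ended, so these counts do not tell which form rose.

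In H2AC6 and H4C8, forms of a gene moved in opposite directions while the gene itself was not called. The spliced H2AC6-201 was at 71.1, 64.2 and 68.8 CPM in −Dox and 55.8, 56.8 and 61.1 CPM in +Dox (−0.23, SE 0.06, adjusted p = 0.0145). The spliced H2AC6-203 was at 29.2, 28.8 and 30.3 CPM in −Dox and 34, 35 and 35.5 CPM in +Dox (0.24, SE 0.05, adjusted p = 0.00779). In H4C8, an H4 gene, the form H4C8-203 fell by 0.52 on the log2 scale (SE 0.08, adjusted p = 0.00125) and H4C8-202 rose by 0.27 (SE 0.08, adjusted p = 0.0312). H4C8-203 was at 15, 13.4 and 15 CPM in −Dox and 9.82, 11 and 9.48 CPM in +Dox. H2AC6-201 missed the threshold without −Dox replicate 3 (adjusted p = 0.0537) and without the first (0.0636) or the second (0.0551) of +Dox. H4C8-202 missed it without −Dox replicate 1 (0.0894) and without the first (0.0852) or the second (0.115) of +Dox. The remaining call, H2BC26-203, was listed at 0 in all +Dox libraries and in −Dox replicate 3 and at 0.532 and 0.539 CPM in the others, and no fold is given for it.

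The histone genes lie in a few groups, taken here as members less than 300 kb apart. Their counts stand beside 8.16% of all genes tested called higher and 7.68% called lower. The largest, at chr6:25723397-26285638, holds 34 members, of which 24 were tested and 0 called with edgeR (median log2 fold change −0.15). Of these 24, 5 had an unadjusted p under 0.05, DESeq2 called 3 and limma on TPM called 0. At chr6:27125897-27147562, 1 of 5 tested members rose, H2BC11 (median 0.12). At chr6:27807479-27893891, 5 of 12 tested members rose, H2AC13, H3C10, H2BC15, H2AC17 and H2BC17, and H4C11 was called lower (median 0.23). At chr1:149782689-149887965, 11 members were tested and H3C14 was called lower (median −0.19). Neither lower call was made once H4C11 and H3C14 were summed with their copies, and the chromosome 1 median includes genes whose reads were divided between copies. All 6 genes that rose thus lay in the later groups of chromosome 6. This was seen after the values were known, the members of a group are neighbours, and it was not tested. Few other genes lie in these groups. Of 9 others tested in the first group of chromosome 6, 1 was called, LINC02980, which rose, and the 1 other gene tested in the second was not called.

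**Figure D5:**
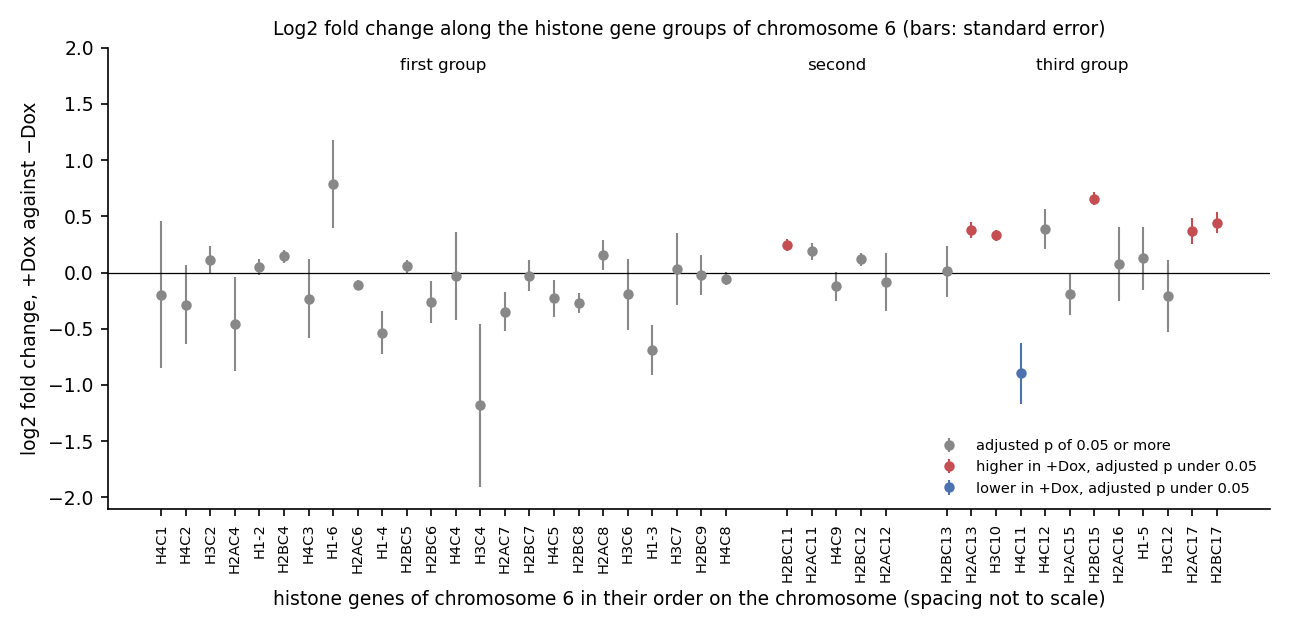
Log2 fold change (+Dox against −Dox, edgeR, bars of 1 SE) of the tested histone genes of chromosome 6 in their order on the chromosome, with spacing not to scale. The genes in red all stand in the later groups, where the medians were 0.12 and 0.23, against −0.15 in the first.

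Many H2A and H2B genes stand head to head and share the sequence between their starts. There were 12 such pairs, with 194 to 251 bases between the starts, and in 10 both genes were tested. In 5 of the 10 the log2 fold changes had the same sign. H2AC17 and H2BC17 both rose. H2BC15 rose while its partner H2AC15 gave −0.19 (adjusted p = 0.55), and H2AC13 rose while its partner H2BC13 gave 0.01 (adjusted p = 0.98). The partners also differed in level. H2BC12 had a mean of 1821 TPM and its partner H2AC12 one of 4.74 TPM. Promoters of 64 members were matched in RefSeq, as windows of 300 bases from 250 before the start. The letters CCAAT were found on either strand in 84.4% of the members and in 35.6% of 27241 other promoters. TATAAA was found in 65.6% and 11.8%. The windows of head-to-head partners cover much of the same sequence, so a single match can count for both genes.

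RNAs that lack a polyA tail were counted in the same libraries. The list of RNAs without a polyA tail (7SL, snRNA, small Cajal body RNA and the like) had 30 genes in the annotation, and 10 passed the filter. With edgeR 0 of 10 were called and 0 had an unadjusted p under 0.05. DESeq2 and limma called 0 as well, and 2 were called with no filter on low counts. Their CPM summed to 182, 58.5 and 106 in −Dox and to 192, 55.4 and 96.7 in +Dox, so libraries differed more than 3-fold within each group and the groups overlapped fully (exact permutation p = 1). Genes of 7SL RNA were the most abundant. The summed level of this list did not differ between the groups beyond their spread.

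The list of histone variant genes, whose mRNAs usually have a polyA tail, had 9 members tested, 1 called higher and 1 lower (22.2%, beside 15.8% of all genes tested). H3-3A and H3-3B encode the same protein, H3.3. H3-3A was at 934, 985 and 968 CPM in −Dox and 1111, 1049 and 1202 CPM in +Dox (0.22, SE 0.05, adjusted p = 0.0136). H3-3B was at 652, 726 and 669 CPM in −Dox and 603, 556 and 609 CPM in +Dox (−0.21, SE 0.05, adjusted p = 0.0177). The genes of H3.3 thus changed in opposite directions, each without overlap. Only 1 of them was called without −Dox replicate 2 or without +Dox replicate 2, and neither with a block for the replicate number.

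The factors of histone mRNA transcription, processing and decay had 30 members tested, 3 higher and 4 lower (23.3%, beside 15.8% of all genes, median −0.08). SLBP was at 154, 156 and 151 CPM in −Dox and 149, 141 and 144 CPM in +Dox, without overlap, and did not pass the test (−0.09, SE 0.04, adjusted p = 0.214). ERI1, an exonuclease that trims histone mRNA, was at 92.4, 89.2 and 89.6 CPM in −Dox and 80.2, 83.4 and 85.8 CPM in +Dox (−0.12, SE 0.05, adjusted p = 0.109). NPAT, a coactivator of histone gene transcription, rose from 67.6, 63.1 and 59.1 CPM to 67.9, 74.3 and 75.2 CPM (0.20, SE 0.06, adjusted p = 0.0458). The other genes that rose were XRN1, a 5′ to 3′ exonuclease (0.25, adjusted p = 0.0157), and NELFE, a subunit of the negative elongation factor (0.21, 0.0288). DIS3, a nuclease of the exosome (−0.24, adjusted p = 0.00709), LSM10 of the U7 particle that cleaves histone pre-mRNA (−0.24, 0.0204), CSTF2 of the cleavage stimulation factor (−0.20, 0.0215) and CRAMP1 (−0.21, 0.0443) fell. The 7 calls became 1 without −Dox replicate 2 or without +Dox replicate 3, and 2 without +Dox replicate 2. They became 3 without −Dox replicate 3, 4 without +Dox replicate 1 and 10 without −Dox replicate 1.

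Histone mRNA follows the cell cycle, so genes of its phases were counted too. Of 38 S phase genes tested, 5 rose and 2 fell (18.4%, beside 15.8% of all genes, median 0.03). TK1, thymidine kinase, rose from 100.5, 110.5 and 108.3 CPM to 130.5, 126.1 and 131.2 CPM (0.28, SE 0.05, adjusted p = 0.00217). CCNE1, cyclin E1 (0.35), ASF1B, a chaperone of H3 and H4 (0.36), and POLA2, a subunit of DNA polymerase alpha (0.21), also rose, and MCM6 and UHRF1 fell. Of 22 G2/M genes tested, 9 rose and 1, AURKA, fell (45.5%, beside the same 15.8%, median 0.12). CDC20, an activator of the anaphase-promoting complex, rose from 77.5, 83.5 and 89 CPM to 117, 108.5 and 112 CPM (0.44, SE 0.06, adjusted p = 2.95e-04). NUSAP1 (0.32), CENPE (0.29), CDK1 (0.23) and CCNB2 (0.25) rose as well. Summed, the G2/M genes were at 4840, 4747 and 4705 CPM in −Dox and 5076, 5186 and 5363 CPM in +Dox, and the S phase genes at 4891, 4986 and 4890 CPM and 5015, 4985 and 5047 CPM. The part of these differences in the histone values was not tested. The 10 calls of the G2/M list became 5 without replicate 2 or replicate 3 of either group. The 7 calls of the S phase list became 4 without replicate 2 of either group or without the first of +Dox.

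Marker genes were checked against the label of the cells. All 11 markers of K562 were tested, with HBG2 and HBG1, gamma globins, the most abundant (9789 and 6253 TPM in −Dox). Of these 11, 4 were called higher and 3 lower (63.6%, beside 15.8% of all genes tested). EPOR, KLF1 and TAL1 were among those that rose, and TFRC, HBZ and LMO2 fell. Markers of other cells were low or near 0 apart from a few genes. T cell markers summed to 21, 22.4 and 20.6 CPM in −Dox and to 19, 13.9 and 26.1 CPM in +Dox, nearly all of it CD3D, and CD8A was at 0. Of the B cell markers, MS4A1 and PAX5 were at 0 in all 6 libraries. Fibroblast markers summed to 1.99 to 2.49 CPM, with COL1A1 the most abundant. Epithelial markers summed to 538, 591 and 668 CPM in −Dox and to 533, 497 and 582 CPM in +Dox, with KRT8 the most abundant and KRT5 at no more than 1 count in a library. None of the genes of these 4 lists was called. The 4 monocyte markers summed to 120, 145 and 169 CPM in −Dox and to 98.9, 98.6 and 116 CPM in +Dox. Nearly all of that was LYZ, which fell (−0.47, SE 0.10, adjusted p = 0.00837), while CD14 and CSF1R had at most 14 and 11 counts in a library. The part of these markers in the histone values was not tested.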

How the data were processed

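PolyA RNA of 3 −Dox and 3 +Dox samples was sequenced by the authors as paired-end reads of 150 cycles and quantified with Salmon 1.10.2 (hg38 is named in the submitters' processing notes). The authors deposited estimated counts per transcript, not scaled for depth or length, and TPM values, scaled by effective length to the same total in each library. Index, strand and bias settings are not given in the sources used here, so genes that overlap on opposite strands and near-identical copies are uncertain.

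Transcripts were matched to GENCODE 44 (251142 of 252045 with version, 470 only without, 433 not matched, with 0.125% to 0.138% of a library's counts). Estimated counts were summed per gene and rounded. A mean count above 10 was required, and tests were made in edgeR 4.0.16 (quasi-likelihood, TMM, two-sided, Benjamini-Hochberg over all features). Sums per type, per form and over copies at least 98% identical, and single transcripts, replaced the genes in the same table. Alternatives were DESeq2 1.42.0, RLE size factors, other count filters, a transcript length offset, limma 3.58.1 on log2(TPM + 0.1), leaving out single libraries, and a block for the replicate number. The copy sums, single transcripts and the H3 sum without H3C10-201 were added after seeing the data. The steps were tested on simulated data, where edgeR called 135 of 200 genes given a log2 change of 1 (67.5%) and 5 unchanged genes. Smaller changes were not simulated.

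The members, lists and tests were chosen with earlier results of these data known. Named are the members called, the 10 most abundant, the most abundant of each type, H3C14, up to 5 called genes of each other list by p, SLBP, NPAT, ERI1 and PCBP1. The other genes and the transcripts named were chosen after their values were seen. A few genes that the rule would name are not reported here.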

Additional observations from a re-analysis of the deposited data

How the results depend on the processing

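With no filter on low counts 15 of 65 histone genes (23.1%, beside 11% of all genes) were called in place of 8 of 54 (14.8% beside 15.8%), among them all 8, and with an absolute log2 fold change above 1 only 1 was. DESeq2 called 10 (7 of them shared), the length offset 9 and limma on TPM 7 (all higher in +Dox). Of all genes, 3333 were called in the fit reported, 3939 with DESeq2, 3930 with no filter, 1882 with the length offset and 1267 with limma. The median log2 fold change of the histone genes was −0.0019 with the length offset. Leaving out 1 library at a time gave 6 to 8 calls. The H2B sum was called with DESeq2 (0.14), with limma (0.15) and without H2BC12 (0.20), and left-out libraries gave 0.12 to 0.19. Without their most abundant gene the sums were −0.37 for H1, −0.083 for H3 and 0.0045 for H4, and H3 without H3C10-201 gave 0.018.

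Values that missed the test and changed sign with 1 library left out were H1-2 (−0.019 to 0.11), H2AC19 (−0.55 to 0.15), H2AC25 (−0.14 to 0.022), the sums of H1 (−0.027 to 0.10) and H2A (−0.037 to 0.073), and the short forms of H1 (−0.027 to 0.10), H2A (−0.011 to 0.17) and H3 (−0.064 to 0.15). The same held for the copy sums H2AC18 with H2AC19 (−0.0027 to 0.21), H3C14 with H3C15 (−0.18 to 0.015) and H4C14 with H4C15 (−0.10 to 0.017). The cause of these shifts was not tested.

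The replicate numbers are shared between groups, but over all genes same-numbered libraries did not deviate together (r of 0.0075, −0.06 and −0.0029), an exception being the 7SL RNA genes, and 0 of 6 correlated best with its own number. With a replicate block 8 histone genes were called and 2490 genes in all. H2AC17 missed the threshold (adjusted p = 0.0775, edgeR), the H3 sum remained called (0.26), and the lists had 0 (variants, so neither H3-3A nor H3-3B), 2 (processing), 4 (S phase) and 5 (G2/M) calls.

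The 15 histone genes with too few counts were not tested, and whether depth set this was not tested either. The split between near-identical copies also varied at higher depth, as for H2AC18 and H2AC19 with 4612 to 5638 counts in a library, and its cause was not tested.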

Other observations

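The 7SL RNA genes RN7SL1 and RN7SL2, which carry no polyA tail, were in the same order in both groups. RN7SL2 was at 104.5 CPM in −Dox replicate 1, 26.4 in replicate 2 and 59.5 in replicate 3, and at 105.1, 29.4 and 53.4 CPM in the +Dox replicates of the same numbers. RN7SL1 was at 68.3, 21.3 and 39.3 CPM in −Dox and at 73.9, 19 and 36.3 CPM in +Dox. This was seen after the values were known and was not tested. The short forms of H2B were in that order in +Dox (580.3, 519.3 and 570.1 CPM in replicates 1, 2 and 3) but not in −Dox (489.5, 555.7 and 501.7 CPM). The same held for the short forms of H1, H2A, H3 and H4, which in −Dox were all highest in replicate 2.

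Of the K562 markers, EPOR, the erythropoietin receptor, was at 15.6, 17 and 16.1 CPM in −Dox and at 32.6, 30.5 and 32.2 CPM in +Dox (log2 fold change 0.97, SE 0.06, adjusted p = 6.52e-07, edgeR). TFRC, the transferrin receptor, was at 922.3, 907.3 and 895.3 CPM in −Dox and at 665.5, 723.4 and 762.8 CPM in +Dox (−0.34, SE 0.05, adjusted p = 8.56e-04).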
